A study of Mus musculus with 51 samples.

Results

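The genes described here are 9 members of 2 families of transcription factors: the interferon regulatory factors Irf1, Irf2, Irf3, Irf5, Irf7, Irf8 and Irf9, and the signal transducers Stat2 and Stat3. They were taken by symbol from count tables of 24421 genes. All 9 were in the files and all 9 passed the expression filter in every preparation. RNA came from the prefrontal cortex (PFC) of 17 adult male C57BL/6J mice, an inbred strain with no transgene in any group. Chronic intermittent ethanol (CIE) mice (n = 9) spent 16 h per day in ethanol vapor of 15 to 20 mg per L of air over 4 weekly cycles, each entry preceded by injections of 1.6 g/kg ethanol and 1 mmol/kg pyrazole, an inhibitor of alcohol dehydrogenase. Control mice (n = 8) sat in the same kind of chamber with fresh air and received saline with the same dose of pyrazole, so that both groups carried the inhibitor. Each mouse gave 3 libraries: astrocytes held on beads against the surface antigen ACSA2, microglia caught with CD11b beads (CD11b marks myeloid cells in general) from what the first beads left, and total homogenate taken before dissociation.

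Interferon regulatory factors (IRFs) share a DNA-binding domain that reads the interferon-stimulated response element, and STAT proteins are phosphorylated at cytokine receptors by Janus kinases before they enter the nucleus. In the type I interferon pathway, sensors of nucleic acids and bacterial products activate IRF3, IRF5 and IRF7, which switch on interferon genes. Secreted interferon then acts through a complex that includes STAT2 and IRF9, named ISGF3, which transcribes interferon-stimulated genes, Irf7 among them. IRF8 belongs to the development and identity of microglia and other myeloid cells, IRF1 follows interferon gamma, IRF2 can oppose IRF1 at shared sites, and STAT3 follows cytokines of the interleukin 6 family and takes part in astrocyte reactivity.

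Counts assigned to genes ranged from 2082289 to 10041788 per astrocyte library, from 571878 to 6026453 per microglia library and from 5042926 to 15594154 per homogenate library, so that microglia libraries were the shallowest. The lowest total was that of the microglia of CIE mouse 23. Levels are given as CPM, counts scaled to the library total with TMM factors within a preparation, unless a scale over all preparations is named. The summed level of 15 astrocyte markers was 13380 to 25610 CPM in astrocytes and 411 to 1592 CPM in microglia. The bead preparations also held RNA of other cells. In control astrocytes the median sum was 21130 CPM for astrocyte markers, 19540 CPM for 8 oligodendrocyte markers and 5400 CPM for microglia markers, and in control microglia it was 36770 CPM for microglia markers, 3427 CPM for oligodendrocyte markers and 463 CPM for astrocyte markers. No marker of the lists used here was at 0 in all libraries of a preparation. Of 10 neutrophil markers tested in microglia, 9 were higher in CIE mice. The summed level of the 11 in the files ran from 550 to 1121 CPM in control and from 723 to 6774 CPM in CIE mice. The highest values were those of mice 23, 26, 39 and 41. Most of the control sum (median 871 CPM) was Csf3r, the tested marker that was not called. Its mean was 706 CPM in control and 636 CPM in CIE mice (log2 fold change -0.15, adjusted p = 0.663). Of 18 microglia markers, 3 were lower in CIE microglia (Fcrls, Trem2 and Gpr34), and the summed level was 33300 to 48260 CPM in control and 24330 to 35900 CPM in CIE mice. In astrocytes 2 of 8 markers of border macrophages and monocytes were higher in CIE mice (Cd163 and Siglec1), with sums over all 11 of 58.2 to 227 CPM in control and 89.2 to 337 CPM in CIE mice. Mobp, an oligodendrocyte marker, was higher in CIE mice in astrocytes (log2 fold change 1.03, adjusted p = 0.0127) and in microglia (1.70, adjusted p = 0.0053). In astrocytes the neuronal marker Tubb3 (1.09, adjusted p = 0.00628) and the astrocyte marker Gjb6 (0.66, adjusted p = 0.00891) were higher and the astrocyte marker Sox9 was lower (-0.39, adjusted p = 0.0173). Tubb3 and Gjb6 went against their lists. The median log2 fold change there was -0.39 for the 9 neuronal markers tested and -0.15 for the 15 astrocyte markers. The median sum in astrocytes was 139.6 CPM in control and 127.9 CPM in CIE mice for neuronal markers, and 21130 and 17970 CPM for astrocyte markers. In total homogenate Gjb6 was higher as well (0.64, adjusted p = 0.03), no neutrophil marker was called, and the neutrophil sum was 13.2 to 42.6 CPM in control and 13.4 to 837 CPM in CIE mice. The part of these cells in the results below was not tested beyond the covariates and left-out mice named beside them.

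In control mice the mean level of each of the 9 members was highest in microglia. On the scale over all preparations, all 9 were higher in microglia than in total homogenate, against 37.5% of all 14379 genes tested, and 8 of 9 were higher in astrocytes than in total homogenate, against 36.2% of all genes. All 9 were also higher in microglia than in astrocytes, against 35.7%. The levels of a bead preparation and of tissue come from different numbers of cells, and more cells of a type cannot be told apart from more RNA per cell. Only the bead preparations were dissociated and sorted, and RNA changes made during isolation cannot be told apart from differences between cell types either. The part of isolation in these levels was not tested.

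The members fell into steps of enrichment. Irf8 was 64.3-fold higher in microglia than in total homogenate (adjusted p = 1.113e-24), Irf5 54.2-fold and Irf1 30.4-fold. Stat3 was 6.38-fold higher, Irf7 5.36-fold, Irf2 3.72-fold, Irf9 3.51-fold and Irf3 2.56-fold. Stat2 was the least enriched, at 1.60-fold (95% interval of the log2 difference 0.36 to 0.98, adjusted p = 9.1e-05). In astrocytes against total homogenate the order began with the same 3 genes, Irf8 at 7.98-fold, Irf5 at 6.72-fold and Irf1 at 5.56-fold, and Stat2 had a log2 difference of 0.11 (interval -0.19 to 0.41, adjusted p = 0.515), which did not pass the test. The difference between microglia and astrocytes was smallest for Irf3, at 1.31-fold (adjusted p = 0.0214), and was not called with RLE scaling (adjusted p = 0.0827) or with DESeq2 (adjusted p = 0.0892).

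Per kb of merged exons, which allows levels of different genes to be compared, Irf8 was the most abundant member in control microglia, with 185 ± 15.9 CPM per kb (SD, n = 8), followed by Irf5 with 156 ± 20.3 and Irf1 with 90.1 ± 18.8. Stat3 had 67.4 ± 9.11, Irf2 42.0 ± 7.49, Irf3 31.1 ± 5.13, Irf9 23.4 ± 1.55 and Stat2 16.7 ± 4.08 CPM per kb. Irf7 was the scarcest, with 8.06 ± 3.40 CPM per kb. The ranges over the 8 mice overlapped for Irf8 and Irf5 (159.9 to 203.1 and 119.5 to 189.8 CPM per kb), so that their order was within the spread. The next neighbours, Irf5 and Irf1, did not overlap, and from Irf1 down to Irf7 each gene overlapped with the next. In control astrocytes the first places were taken by Stat3 (26.3 ± 2.82 CPM per kb), Irf3 (23.8 ± 3.89) and Irf8 (22.8 ± 12.1), whose ranges overlapped, and then came Irf5 (19.1 ± 9.57), Irf1 (16.4 ± 4.75), Irf2 (15.1 ± 1.70), Stat2 (11.4 ± 1.16), Irf9 (8.51 ± 1.97) and Irf7 (4.84 ± 1.69), each overlapping with the next other than Irf2 and Stat2. In total homogenate Irf3 (12.2 ± 2.71), Irf2 (11.3 ± 0.923), Stat3 (10.6 ± 0.849) and Stat2 (10.5 ± 1.92) lay within their spread, Irf9 had 6.68 ± 1.32, Irf1, Irf5 and Irf8 each had between 2.87 and 2.97 CPM per kb, and Irf7 again came last with 1.57 ± 0.374.

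**Figure D1:**
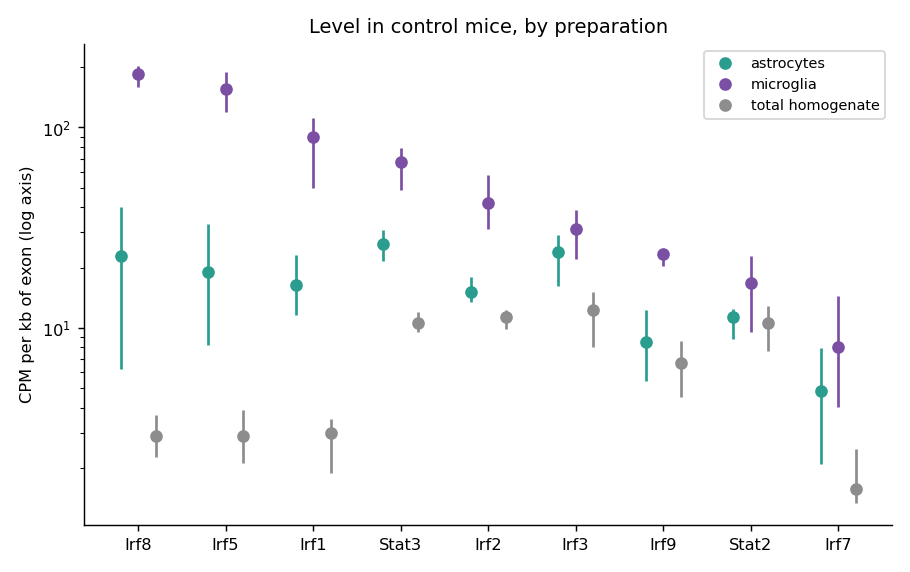
Level of the 9 members in the 8 control mice, in CPM per kb of exon on a log axis, by preparation (point, mean; line, lowest to highest mouse). Irf8, Irf5 and Irf1 are the highest in microglia and lie near 3 CPM per kb in total homogenate, while Stat2 has 16.7, 11.4 and 10.5 CPM per kb in microglia, astrocytes and total homogenate.

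The same mouse gave both glial preparations, and the level in astrocytes was therefore also expressed as a percentage of the level in the microglia of that mouse. For Irf8 the median over the 8 control mice was 10.9% (3.77 to 19.7%), for Irf5 12.9% (4.81 to 20.3%) and for Irf1 18.8% (12.6 to 27.1%). The 18 microglia markers had medians from 10.9% (Itgam) to 20.9% (Sall1), with 11.7% in the middle, so that these 3 members lay inside the range of genes used to mark microglia. The other members lay above it: Irf2 at 35.8%, Irf9 at 37.05%, Stat3 at 39.2%, Irf7 at 53.7%, Stat2 at 67.0% and Irf3 at 75.2%. The part that microglial RNA had in the astrocyte level of any member was not tested.

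**Figure D2:**
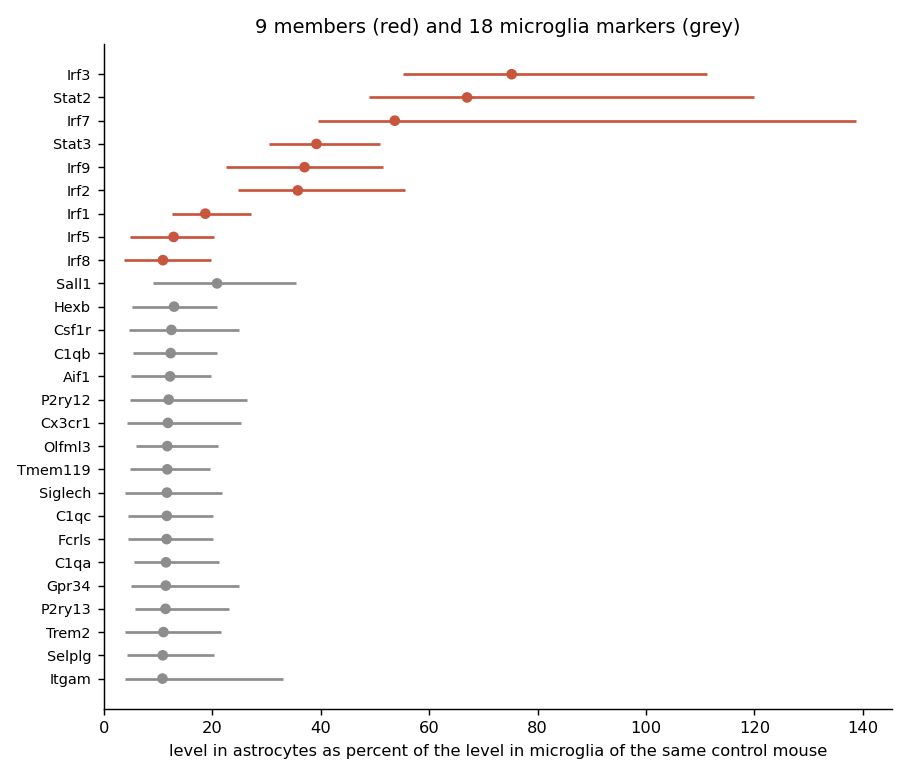
Level in astrocytes as a percentage of the level in microglia of the same control mouse, for the 9 members (red) and the 18 microglia markers (grey), with the median over 8 mice as a point and the lowest to highest mouse as a line. Irf8, Irf5 and Irf1 lie among the markers and the other members to their right.

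The main comparison was CIE against control within each preparation. In astrocytes 3 of 9 members rose (Irf7, Irf9 and Stat2) and none fell, against 2.91% of 12878 genes tested that were higher. In microglia the same 3 rose, against 2.31% of 10761 genes, and Irf8 fell, against 1.15% that were lower. In total homogenate Irf7 alone rose, against 0.193% of 13982 genes. Irf1, Irf2, Irf3, Irf5 and Stat3 did not pass the test in any preparation. The median log2 fold change of the 9 members was 0.16, 0.12 and 0.19 in the astrocyte, microglia and homogenate fits, and that of all genes lay between -0.01 and 0.01 in each.

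**Figure D3:**
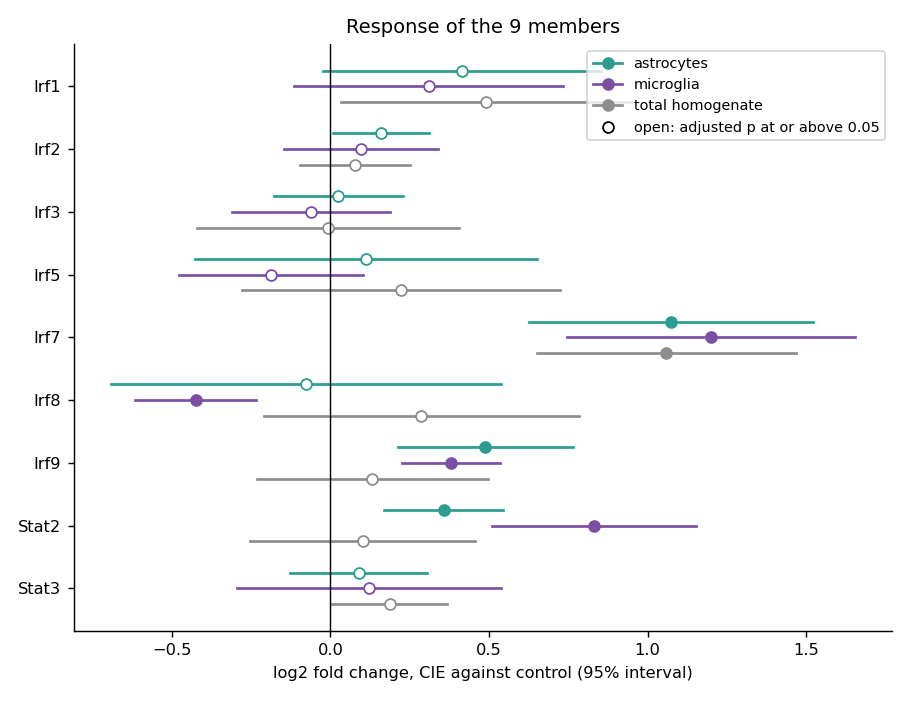
Log2 fold change of CIE against control for the 9 members with its 95% interval, in astrocytes, microglia and total homogenate (filled points, adjusted p under 0.05). Irf7 lies near 1 in all 3 preparations, Stat2 is highest in microglia, and the one called value below 0 is that of Irf8 in microglia.

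Irf7, the interferon regulatory factor that is itself induced by interferon, about doubled in each preparation. It lies at chr7:141262706-141266481 on the minus strand (mm10). In astrocytes its level ran from 5.65 CPM through a median of 12.5 to 21.3 in control mice and from 14.5 through 27.4 to 42.3 in CIE mice. Every CIE mouse was above the control median and 6 of 9 were above the highest control mouse, mouse 03. The mean went from 12.9 ± 4.57 (SD, n = 8) to 26.4 ± 7.89 CPM (SD, n = 9), a log2 fold change of 1.07 (SE 0.214, adjusted p = 0.00914). In microglia the level ran from 8.77 through 15.6 to 32.0 CPM in control mice and from 20.3 through 40.3 to 63.9 in CIE mice. Here 7 of 9 CIE mice were above the highest control mouse, mouse 19, and the CIE mouse with the most Irf7 was mouse 39, as in astrocytes. The log2 fold change was 1.20 (SE 0.218, adjusted p = 0.0053), from counts between 9 and 230 reads per library. In total homogenate the level ran from 3.17 through 3.44 to 5.95 CPM in control mice and from 4.68 through 7.49 to 11.8 in CIE mice. All but 1 of the control mice lay under 4 CPM, below the lowest CIE mouse, and the exception was mouse 19 at 5.95 CPM. The log2 fold change was 1.06 (SE 0.195, adjusted p = 0.0216).

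Within the 3 ranges of mouse numbers (03 to 08, 19 to 26 and 35 to 41, whose meaning the labels do not give), Irf7 was higher in CIE mice by 0.73, 0.98 and 1.37 (log2) in astrocytes, by 0.81, 1.39 and 1.27 in microglia and by 1.21, 0.69 and 1.09 in total homogenate. In microglia the call was lost with the neutrophil markers as a covariate (log2 fold change 0.98, adjusted p = 0.117), with the microglia markers as a covariate (1.08, adjusted p = 0.157) and without mice 23, 26, 39 and 41 (1.02, adjusted p = 0.071). In total homogenate it was lost without control mouse 03, 20, 22, 35 or 36, taken out one at a time, with an adjusted p of at most 0.0601, and with only mice numbered 19 and above (log2 fold change 1.00, adjusted p = 0.221). In astrocytes it held in each of the 17 fits that left out 1 mouse and with the microglia markers as a covariate (1.08, adjusted p = 0.00636).

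Stat2 and Irf9, the parts of ISGF3 among the members, rose in both glial preparations. Stat2 (chr10:128270559-128292849, plus strand) had 38.0 through 66.6 to 93.4 CPM in control microglia and 77.1 through 126 to 156 in CIE microglia. Of the CIE mice 8 of 9 were above the highest control mouse, and the lowest CIE mouse was mouse 41. The mean went from 66.7 ± 16.8 to 119 ± 24.9 CPM, a log2 fold change of 0.83 (SE 0.155, adjusted p = 0.00594). In astrocytes Stat2 had 43.1 through 57.3 to 59.8 CPM in control and 55.9 through 71.8 to 88.9 in CIE mice. Again 8 of 9 CIE mice were above every control mouse and mouse 41 was the exception. The log2 fold change was 0.36 (SE 0.0896, adjusted p = 0.026). In total homogenate the groups overlapped, with 33.3 to 56.0 CPM in control and 28.4 to 71.7 in CIE mice, and the log2 fold change was 0.10 (interval -0.25 to 0.46, adjusted p = 0.934).

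Irf9 (chr14:55603571-55610030, plus strand) gave one of the tightest separations in microglia. Control mice had 60.2 through 65.7 to 71.2 CPM and CIE mice 73.3 through 86.4 to 93.7 CPM. Every CIE mouse was above every control mouse, which held for 0.242% of all genes tested in microglia. The log2 fold change was 0.38 (SE 0.0744, adjusted p = 0.0077), smaller than that of Stat2 but with less spread between mice. In astrocytes Irf9 had 18.9 through 30.1 to 41.7 CPM in control and 29.3 through 39.9 to 52.4 in CIE mice. The groups overlapped, with 4 of 9 CIE mice above the highest control mouse, mouse 20. The log2 fold change was 0.49 (SE 0.133, adjusted p = 0.0385). In total homogenate Irf9 had 13.7 to 26.2 CPM in control and 12.6 to 32.7 in CIE mice, with a log2 fold change of 0.13 (interval -0.23 to 0.50, adjusted p = 0.906). Of the exonic bases of Irf9, 3.97% are shared with Rnf31 on the same strand, and reads from these bases cannot be told apart.

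Within the ranges of mouse numbers Stat2 was higher in CIE mice by 0.72, 1.01 and 0.69 (log2) in microglia and by 0.22, 0.39 and 0.36 in astrocytes, and Irf9 by 0.46, 0.37 and 0.34 in microglia and by 0.91, 0.29 and 0.49 in astrocytes. In microglia both kept their call with the neutrophil markers as a covariate (adjusted p = 0.0376 for Stat2 and 0.0303 for Irf9) and without mice 23, 26, 39 and 41 (0.0227 and 0.0434), and lost it with the microglia markers as a covariate, at log2 fold changes of 0.68 for Stat2 (adjusted p = 0.226) and 0.42 for Irf9 (0.0937). Irf9 in microglia also lost its call in 1 model of all 51 libraries (0.36, adjusted p = 0.124). In astrocytes the calls were close to the threshold. With the border macrophage and monocyte markers as a covariate the log2 fold change was 0.35 for Stat2 (adjusted p = 0.106) and 0.42 for Irf9 (0.163). Over all genes that fit called 176 genes, against 680 with RLE scaling and no covariate. In 1 model of all 51 libraries the log2 fold change was 0.36 for Stat2 (0.187), and with only mice numbered 19 and above it was 0.39 for Irf9 (0.102). Irf9 in astrocytes also lost its call in 12 of the 17 fits that left out 1 mouse (03, 05, 19, 22, 35, 36, 37, 06, 23, 24, 26 or 40, adjusted p up to 0.0864) and Stat2 in 8 (22, 35, 36, 37, 23, 24, 26 or 40, adjusted p up to 0.0676).

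Irf8, a myeloid factor that microglia depend on, was the one member that fell. In microglia it had 524 through 572 to 649 CPM in control and 336 through 446 to 505 CPM in CIE mice. Every CIE mouse was below every control mouse, which held for 0.223% of all genes tested in microglia, and the lowest was mouse 25. On the scale over all preparations the groups met, with 549 to 698 CPM in control and 375 to 558 in CIE mice. The mean went from 575 ± 48.1 to 429 ± 53.7 CPM, 0.745 of control, a log2 fold change of -0.43 (SE 0.0919, adjusted p = 0.0144). Within the ranges of mouse numbers the differences were -0.21, -0.53 and -0.48. Irf8 lies at chr8:120736358-120756694 on the plus strand.

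The fall of Irf8 went together with lower microglia markers. All 18 markers had a log2 fold change below 0 in microglia, from -1.06 (Fcrls) to -0.16 (Sall1) with a median of -0.26, and 5 of them were below that of Irf8. As a percentage of the summed microglia markers of the same library, Irf8 had 1.30 through 1.60 to 1.72% in control and 1.25 through 1.34 to 1.83% in CIE mice, and on this scale the groups overlapped. The call was lost with the microglia markers as a covariate (-0.32, adjusted p = 0.423), with the neutrophil markers as a covariate (-0.39, adjusted p = 0.168), without mice 23, 26, 39 and 41 (-0.42, adjusted p = 0.0905) and in 1 model of all 51 libraries (-0.45, adjusted p = 0.281). It held in each of the 17 fits that left out 1 mouse. In astrocytes Irf8 ranged from 24.3 to 153 CPM in control and from 41.6 to 151 in CIE mice (log2 fold change -0.08, interval -0.69 to 0.54, adjusted p = 0.916). In total homogenate it had 7.74 to 12.6 CPM in control and 5.44 to 22.8 in CIE mice, with mice 23 and 26 highest (log2 fold change 0.29, interval -0.21 to 0.78, adjusted p = 0.797).

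**Figure D4:**
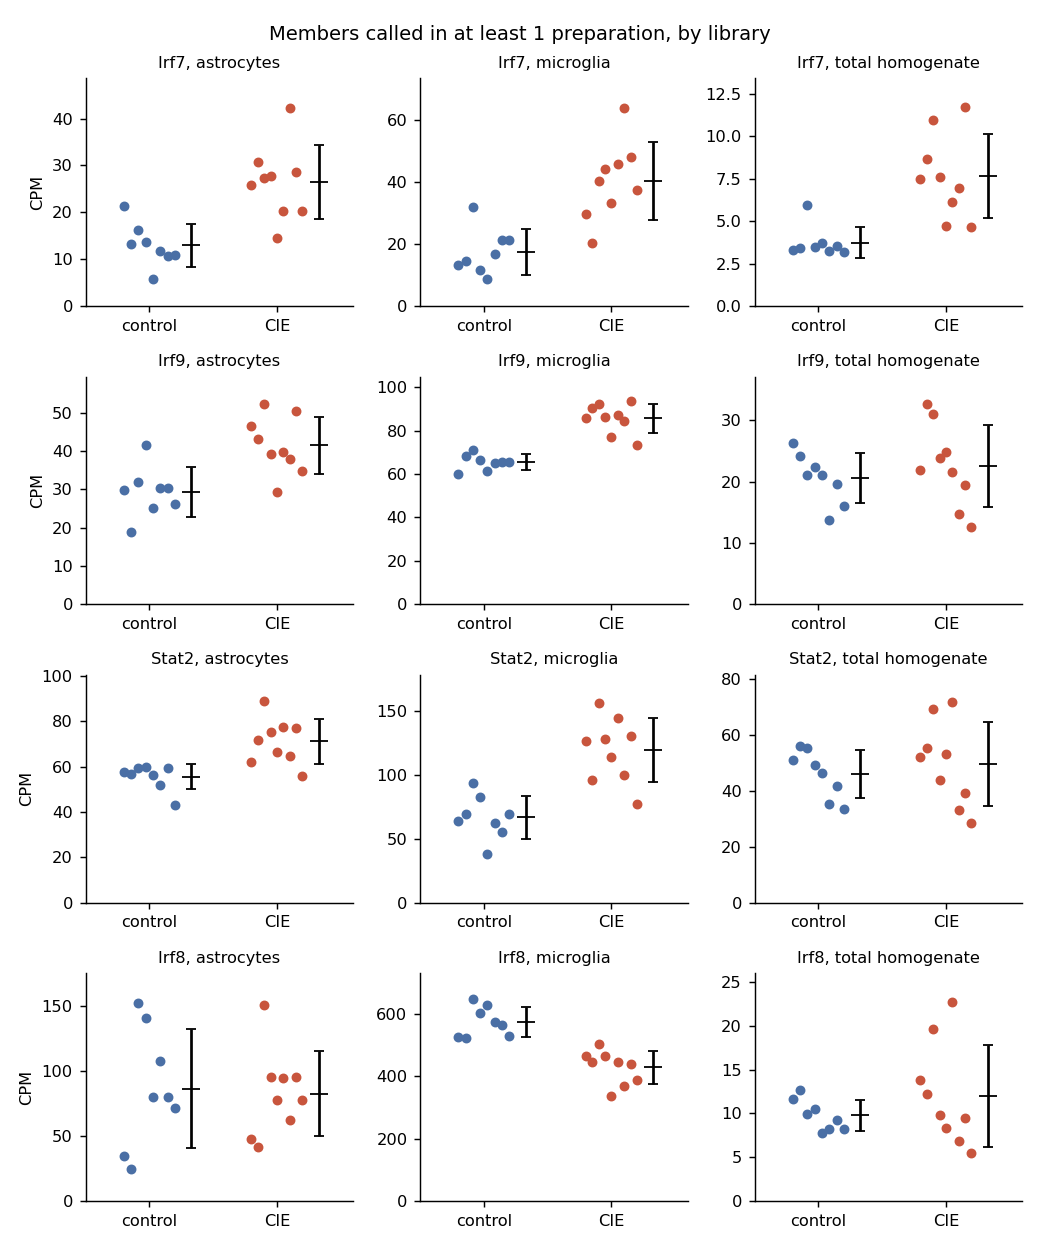
CPM of Irf7, Irf9, Stat2 and Irf8 in each library of control (blue, n = 8) and CIE mice (red, n = 9) by preparation, with the mean and SD in black, and each axis starting at 0. Irf9 and Irf8 separate the groups in microglia, and Irf7 is higher in CIE mice in every preparation with 1 high control mouse in total homogenate.

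The other members did not pass the test. Irf1, which follows interferon gamma, had positive log2 fold changes in all 3 preparations, 0.41 in astrocytes (interval -0.02 to 0.85, adjusted p = 0.266), 0.31 in microglia (interval -0.11 to 0.73, adjusted p = 0.494) and 0.49 in total homogenate (interval 0.03 to 0.95, adjusted p = 0.505). Its spread was large: in CIE microglia it ran from 173 CPM in mouse 39 to 566 in mouse 06, against a control range of 151 to 355. Of the CIE mice 4 were above the highest control mouse and 0 below the lowest. Within the ranges of mouse numbers the difference in microglia was 0.61, 0.63 and -0.39, so that the direction turned between ranges. In astrocytes and in total homogenate the highest Irf1 was that of CIE mouse 23, at 159 and 27.1 CPM, against control maxima of 86.0 and 11.6 CPM.

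Irf2, which can oppose Irf1, had log2 fold changes of 0.16 (interval 0.01 to 0.31), 0.10 (-0.15 to 0.34) and 0.08 (-0.10 to 0.25) in astrocytes, microglia and homogenate, the order kept for the genes that follow. In astrocytes all 9 CIE mice were above the control median of 40.2 CPM, with an adjusted p of 0.210. Irf3, a constitutive factor that is activated by phosphorylation, had 0.02 (-0.18 to 0.23), -0.06 (-0.31 to 0.19) and -0.01 (-0.42 to 0.40). Irf5, which acts downstream of toll-like receptors, had 0.11 (-0.43 to 0.65), -0.19 (-0.48 to 0.10) and 0.22 (-0.28 to 0.72). Irf5 shares 9.48% of its exonic bases with Tnpo3 on the other strand, and the strand setting of the counting is not given in the sources used here. Stat3 had 0.09 (-0.13 to 0.30), 0.12 (-0.30 to 0.54) and 0.19 (0.01 to 0.37, adjusted p = 0.525). In microglia the SD of Stat3 was 57.7 CPM in control and 165 CPM in CIE mice, from 235 in mouse 39 to 656 in mouse 25, which lay on both sides of the control range of 278 to 457.

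The responses of the members were then compared between preparations by interaction terms in 1 model of all 51 libraries. No member passed. Between microglia and astrocytes 0.529% of 14379 genes were called, between microglia and total homogenate 0.828%, and between astrocytes and total homogenate 0.00695%. By unadjusted p under 0.05 the counts of members were 1, 2 and 0, and DESeq2 called 0 members in each. The nearest was Stat2, whose log2 response was larger in microglia than in total homogenate by 0.72 (interval 0.30 to 1.13, adjusted p = 0.0939). With the mouse as a replicate block this difference was 0.73 and passed the test (adjusted p = 0.016), and it was the one member called in that fit. The response of Irf8 was lower in microglia than in total homogenate by a log2 difference of -0.72 (interval -1.41 to -0.02, adjusted p = 0.426). For Irf9 the response in total homogenate was smaller than in microglia by 0.23 (interval -0.16 to 0.62, adjusted p = 0.757) and smaller than in astrocytes by 0.37 (interval -0.02 to 0.76). The response of Irf7 differed by 0.10 between microglia and astrocytes (interval -0.52 to 0.72), by 0.11 between microglia and total homogenate (-0.55 to 0.78) and by 0.01 between astrocytes and total homogenate (-0.83 to 0.86), intervals that leave room for sizeable differences either way.

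The promoters of Irf7, Irf9 and Stat2 are shown because these 3 genes were called higher in both glial preparations, while in total homogenate only Irf7 was. The sequences are those of RefSeq on GRCm38.p6 (the mm10 assembly), each 300 bases long and written 5′ to 3′ on the strand of the gene. All 9 members were found in the RefSeq promoter table, with 12 promoters. Both strands were searched for AAANNGAAA, the core of the interferon-stimulated response element, and for TTCNNNGAA, the palindrome that STAT dimers read, and the 2 patterns do not overlap in any promoter printed here. Capitals mark matches. The Irf7 promoter covers chr7:141266375-141266674 (minus strand), the Irf9 promoters chr14:55603735-55604034 and chr14:55604329-55604628 (plus strand), and the Stat2 promoter chr10:128270248-128270547 (plus strand).
Irf7: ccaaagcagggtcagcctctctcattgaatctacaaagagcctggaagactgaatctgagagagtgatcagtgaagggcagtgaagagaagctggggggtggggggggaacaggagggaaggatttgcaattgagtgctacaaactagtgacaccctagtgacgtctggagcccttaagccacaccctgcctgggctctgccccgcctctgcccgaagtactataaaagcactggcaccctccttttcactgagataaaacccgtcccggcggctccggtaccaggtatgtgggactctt
Irf9, first: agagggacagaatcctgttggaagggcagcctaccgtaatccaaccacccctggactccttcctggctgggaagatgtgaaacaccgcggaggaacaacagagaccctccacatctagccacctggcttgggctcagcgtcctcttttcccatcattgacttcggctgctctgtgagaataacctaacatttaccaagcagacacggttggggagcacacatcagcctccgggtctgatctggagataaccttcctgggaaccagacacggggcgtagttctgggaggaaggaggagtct
Irf9, second: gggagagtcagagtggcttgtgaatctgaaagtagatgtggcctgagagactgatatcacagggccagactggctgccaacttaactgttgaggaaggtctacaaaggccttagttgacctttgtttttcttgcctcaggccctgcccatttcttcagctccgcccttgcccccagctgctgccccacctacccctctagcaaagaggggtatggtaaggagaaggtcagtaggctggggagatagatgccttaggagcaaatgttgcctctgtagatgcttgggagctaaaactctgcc
Stat2: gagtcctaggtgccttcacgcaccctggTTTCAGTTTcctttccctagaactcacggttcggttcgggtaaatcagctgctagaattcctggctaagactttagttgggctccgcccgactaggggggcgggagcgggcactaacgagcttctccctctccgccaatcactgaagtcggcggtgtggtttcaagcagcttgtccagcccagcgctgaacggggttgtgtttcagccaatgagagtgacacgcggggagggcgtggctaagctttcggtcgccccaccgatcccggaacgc

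The Stat2 promoter held 1 match of the interferon core, which starts at base 29 of the window, and none of the STAT palindrome. No promoter of Irf7 or Irf9 held either pattern, which says only that these letters are not in these windows. Of all 32851 RefSeq promoters of the same length, 10.6% held the interferon core and 8.3% the STAT palindrome, and by gene these shares were 12.1% and 9.55% of 27025 genes with a promoter. Among the 9 members the core was found in 2 genes (Irf2 and Stat2) and the palindrome in 3 (Irf1, Irf2 and Irf8). The first promoter of Irf8 held the palindrome at 2 places.

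The rest of the pathway was followed through lists ordered by role. Of 10 interferon ligands, Ifnb1, Ifng and alpha, lambda and other interferons, none passed the expression filter in any preparation. Of 7 receptor chains and Janus kinases, Ifngr2, a chain of the interferon gamma receptor, fell in microglia (log2 fold change -0.30, SE 0.0743, adjusted p = 0.0292), and none was called in astrocytes or total homogenate. Of 18 sensors, adaptors and kinases that activate IRFs, Zbp1, a sensor of nucleic acids that is itself induced by interferon, rose in astrocytes (1.98, adjusted p = 0.0103) and microglia (2.01, adjusted p = 0.00561). Mavs, the mitochondrial adaptor of RNA sensors, fell in microglia (-0.31, adjusted p = 0.0316).

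Of 30 interferon-stimulated genes, 28 were tested in astrocytes and 11 of them rose, 27 were tested in microglia and 15 rose, and 26 were tested in total homogenate and 5 rose. None fell in any preparation. Over all genes tested, 2.91%, 2.31% and 0.193% were higher in these fits, which is also the background of the other lists, and 1.15% were lower in microglia. The median log2 fold changes of those tested were 0.65, 0.74 and 0.77. In astrocytes the smallest adjusted p-values were those of Xaf1 (log2 fold change 0.73, adjusted p = 0.000827), Tap1 (1.40, 0.00365), Irgm1 (1.11, 0.00451) and Ifit3 (1.01, 0.00484). In microglia they were those of Oasl2 (1.45, adjusted p = 0.000852), Tap1 (1.35, 0.00223), Nlrc5 (2.24, 0.00298) and Mx1 (1.29, 0.00438). In total homogenate they were Irgm1 (1.16, adjusted p = 0.0111), Ifit3 (0.83, 0.0168), Rtp4 (1.05, 0.0272) and Tap1 (1.55, 0.03). Tap1 carries peptides to MHC class I, Nlrc5 is an activator of MHC class I genes, and Ifit3, Oasl2 and Mx1 are antiviral effectors.

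Of 10 regulators that feed back on STATs, Usp18, which limits signaling at the interferon receptor, rose in microglia (0.87, SE 0.219, adjusted p = 0.0309). Ptpn2, a phosphatase of Janus kinases and STATs, fell in astrocytes (-0.37, SE 0.104, adjusted p = 0.0465). None of 9 receptor chains that feed STAT3 was called in any preparation. Of 8 STAT3 targets tested in each preparation, 1 rose, Lcn2 in microglia (3.52, SE 0.815, adjusted p = 0.0217), which is also one of the neutrophil markers, and the part of neutrophils in it was not tested. None of 7 further genes with STAT or IRF names (Stat4, Stat5a, Stat5b, Stat6, Irf2bp1, Irf2bp2 and Irf2bpl) was called where tested.

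**Figure D5:**
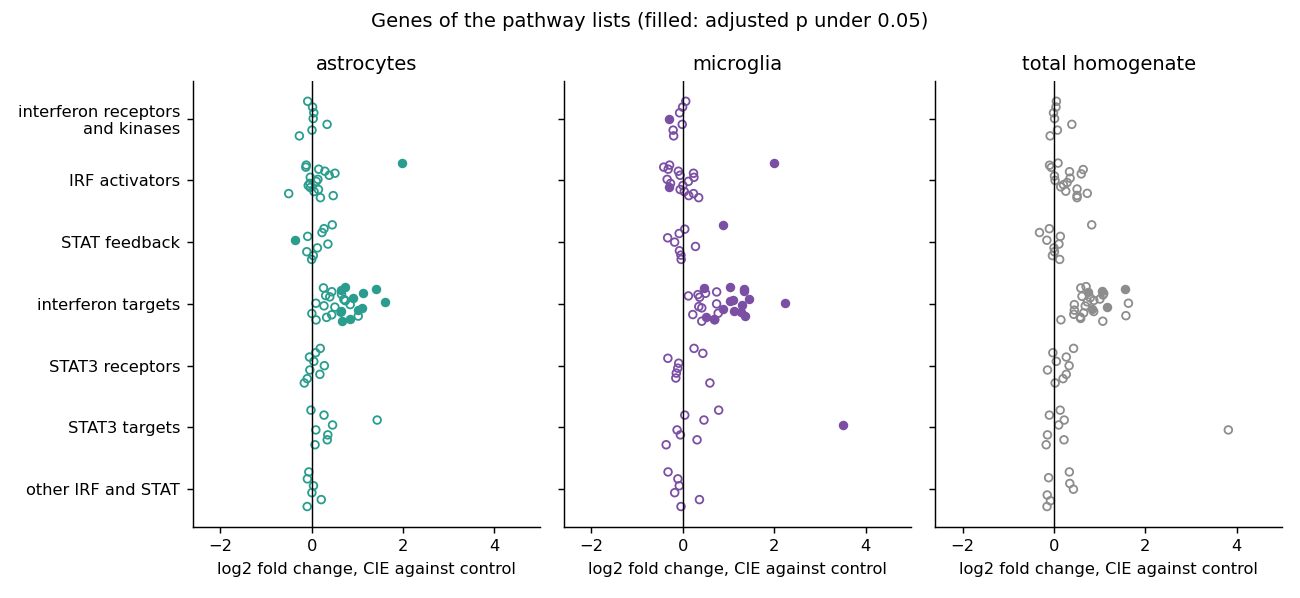
Log2 fold change of CIE against control for each gene of the pathway lists that passed the expression filter, by preparation (filled, adjusted p under 0.05). The interferon targets lie to the right of 0 in every preparation, and the other lists straddle 0 with at most 2 called genes in a preparation.

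Finally, the genes whose pattern was most like that of each member were found by Pearson's r of log2 CPM over the 51 libraries, a description in which libraries share mice, depth and preparation. For Irf7 they were Rtp4 (r = 0.945), Usp18 (0.935) and Sp100 (0.922). For Irf8 they were Cyth4 (0.997), Vav1 (0.996) and Il21r (0.996), and for Irf5 Cd53 (0.996) and Vav1 (0.996). For Irf9 they were H2-DMb1 (0.970), Tnfrsf14 (0.964) and Tapbp (0.962), and for Stat2 Nlrc5 (0.897), H2-T23 (0.888) and Scarf2 (0.886). For Stat3 they were Rela (0.985), Mafk (0.985) and Birc3 (0.982), for Irf1 Btg1 (0.985) and Nuak2 (0.985), for Irf2 Galnt10 (0.980), Sh2b3 (0.979) and Mknk1 (0.974), and for Irf3 Eml3 (0.942), Txlna (0.934) and H2-Ke6 (0.933).

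With the means of the 6 groups removed, the genes most like Irf7 were Usp18 (r = 0.699), Rtp4 (0.679) and Isg15 (0.675), 2 of which also led over all libraries. Irf1 went with H2-Q4 (0.819), Tap1 (0.817) and Il1a (0.815). Irf8 went with Pld4 (0.951), Cyth4 (0.938) and Unc93b1 (0.933), Irf5 with Il10ra (0.926), Arhgap30 (0.925) and Ccdc88b (0.916), and Irf9 with H2-DMb1 (0.760), Tapbp (0.755) and Ctsh (0.754). Stat2 went with Miip (0.808), Lrrc45 (0.801) and Fpgs (0.796), Stat3 with Rela (0.852), Zswim4 (0.847) and Rbbp6 (0.838), Irf2 with Man2a1 (0.727), Rin2 (0.662) and Il6ra (0.661), and Irf3 with Pabpn1 (0.869), Tjap1 (0.865) and Rps6kb2 (0.857). Among the members themselves, Irf5 and Irf8 deviated together in astrocytes (r = 0.951 over 17 libraries) and total homogenate (0.898) but less so in microglia (0.124). Other pairs were as close: Irf3 and Stat2 (0.919) and Irf5 and Stat2 (0.901) in total homogenate, and Irf5 and Stat3 (0.915) in microglia. Across preparations of the same mouse, the deviations of Irf1 had r = 0.667 between astrocytes and microglia, 0.787 between astrocytes and total homogenate and 0.565 between microglia and total homogenate, and those of Irf7 had 0.344, 0.408 and 0.234 (n = 17 mice each).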

How the data were processed

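As deposited, the files hold whole counts of reads per gene symbol, with no normalization. Per the labels and the methods of the study, the authors called bases with bcl2fastq 2.17, trimmed reads with cutadapt 1.8, aligned them to mm10 by STAR 2.5.0a, dropped duplicates with Picard 1.141 and counted with HTSeq 0.6.1p1, from poly(A) libraries of a directional kit. Lines that name no gene were left out. Reads in no feature or ambiguous between features were 14.9 to 47.7% of the total of these reads and the assigned counts, by library. The strand setting and annotation release are not given in the sources used here, and samples that the authors left out were not used here.

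Every preparation had a fit of its own in edgeR 4.0.16 in R 4.3.3 (filterByExpr, TMM, quasi-likelihood test, Benjamini-Hochberg adjustment over all genes tested, threshold 0.05). The SE is the size of the log2 fold change over the square root of F, and intervals are at 95%. Control levels and interaction terms came from 1 model of 6 groups. Preparations with the same mouse number came from the same mouse. Over all genes of this model, their deviations from group means had a median r of 0.149 (astrocytes and microglia), 0.112 (astrocytes and total homogenate) and 0.0394 (microglia and total homogenate). By member, r over the 17 mice ran from -0.0146 (Irf8) to 0.787 (Irf1), both between astrocytes and total homogenate. For Stat2 it was 0.458, 0.706 and 0.52 in the order of the medians. Log2 CPM used a prior count of 2. Exon lengths were merged from GENCODE basic gene models of the same build, and plots were drawn with matplotlib 3.10.9.

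All members are named in each comparison, with up to 4 called genes per pathway list (smallest adjusted p) and the 3 genes most like each member, of which 1 for Irf1 and 1 for Irf5 is not reported here. Members, lists and marker sets were chosen with earlier results of these data known. Alternatives were DESeq2 1.42.0, RLE scaling, other filters, marker levels or mouse ranges as covariates, leaving out mice, 1 model of all libraries and a replicate block. The microglia markers as a covariate in microglia and the sets without several mice were added after seeing the data.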

Additional observations from a re-analysis of the deposited data

Results flagged for a closer look

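In 4 of 54 groups of member levels, the highest or lowest library stood apart by Dixon's ratio taken on log2 CPM, where chance gives about 1 in 20 groups. With the ratio taken on CPM itself, 6 of the 54 groups had such a library, and of the 4 groups given here only Irf7 in total homogenate was among them (ratio 0.803). Irf7 in total homogenate was at 5.95 CPM in control mouse 19, and the next control mouse was at 3.72 CPM. Irf1 was low, at 151 CPM, in the microglia of control mouse 22, where the next value was 252.5 CPM, and low, at 6.22 CPM, in the total homogenate of control mouse 37. Stat2 was low, at 43.15 CPM, in the astrocytes of control mouse 37, with the next at 51.7 CPM. All 4 were control libraries.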

How the results depend on the processing

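The number of members called in astrocytes (3 in the report) was 1 with border macrophage and monocyte markers as a covariate. It was 2 in 1 model of all 51 libraries, 2 with only mice numbered 19 and above and 1 to 3 in the fits that left out 1 mouse. In microglia (4 in the report) it was 2 in 1 model of all 51 libraries, 2 with neutrophil markers as a covariate, 0 with microglia markers as a covariate and 2 without mice 23, 26, 39 and 41, the last pair of settings, and the one without mice 23, 25 and 26, chosen after seeing the data. Over all genes these last 3 microglia fits called 55, 24 and 87 genes, against 373. In total homogenate (1 in the report) it was 0 with only mice numbered 19 and above and 0 to 1 in the fits that left out 1 mouse. With the mouse as a replicate block, 1 member (Stat2) differed in response between microglia and total homogenate, against 0 without it, and the block changed no other call of a member. RLE scaling moved the median of all genes by -0.0959 to 0.0115 (log2) in the 3 comparisons of control levels and by -0.0287 to 0.0156 in the 3 comparisons of responses.

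No called value changed direction under any alternative run. Values that did not pass the test and changed sign were, with border macrophage and monocyte markers as a covariate in astrocytes, Irf5 (-0.34) and Stat3 (-0.0493); with microglia markers as a covariate, Stat3 in microglia (-0.25) and Irf3 in total homogenate (0.0698); with only mice numbered 19 and above, Irf3 in total homogenate (0.036); and without mice 23, 25 and 26 in total homogenate, Irf2 (-0.0279), Irf5 (-0.12), Irf8 (-0.0264) and Stat2 (-0.13). Leaving out 1 mouse gave ranges across 0 for Irf3 in astrocytes (-0.0463 to 0.0563), microglia (-0.11 to 0.0024) and total homogenate (-0.0816 to 0.0725), and for Irf5 (-0.0409 to 0.27) and Irf8 (-0.25 to 0.0825) in astrocytes. Differences of responses that changed sign were, with the replicate block, Stat3 between microglia and astrocytes (-0.0439) and Irf5 between astrocytes and total homogenate (0.019), with RLE scaling Irf2 between microglia and total homogenate (-0.0069), and Irf7 between astrocytes and total homogenate (-0.0181 with RLE scaling and -0.0236 with DESeq2). The cause was not tested. Counting error follows a gene's own reads: Irf7 had 9 reads in its lowest microglia library and 23 in its lowest total homogenate library. Irf8, Irf5 and Irf1 had 45, 36 and 51 reads in their lowest total homogenate library.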
